A study of Mus musculus with 2 samples.

Results

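Type 2 conventional dendritic cells (cDC2s) among the immune cells of B16-OVA melanomas are described here, in 137 cells out of 14152 barcodes. The cells were selected on their own transcripts. A member had at most 25% mitochondrial UMIs (unique molecular identifiers, each 1 counted RNA molecule), at least 2 UMIs of *Cd209a*, and a sum of at least 1 UMI over *Flt3*, *Zbtb46* and *H2-DMb2*. It had no UMI of *Xcr1* or *Clec9a*, at most 1 UMI of *Cd3d*, *Cd3e* and *Cd3g* together, fewer than 10 of *C1qa*, *C1qb* and *C1qc*, fewer than 3 of *Siglech*, and fewer than 2 of *Fscn1* and *Cacnb3*. These limits keep out type 1 dendritic cells, T cells, C1q-high macrophages, plasmacytoid dendritic cells and Ccr7-type dendritic cells, and cDC2 is used here for any cell that met them. B16-OVA is a mouse melanoma line that carries the model antigen ovalbumin. Per the labels, tumors were taken on day 14, and 4 tumors were combined into each of 2 suspensions, from which living CD45.2+ cells were sorted. Other passages of the study's text give an earlier day and a different number of mice per group, and which of them holds for these libraries is not known. One suspension came from mice labelled as treated with PBS (control) and the other from mice given 10.5 mg of creatine by intraperitoneal injection. Each condition is 1 library of pooled animals, so no comparison between them has a replicate, no test was run, and intervals cover counting error only.

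Conventional dendritic cells take up antigen in tissue and present it to T cells, and their growth depends on the receptor FLT3. The type 1 lineage, marked by XCR1 and CLEC9A and dependent on IRF8 and BATF3, is known for presenting captured antigen to CD8 T cells. The type 2 lineage is associated with IRF4, SIRPA and C-type lectins, is rich in MHC class II, and is known mainly for priming CD4 T cells. Monocytes that enter a tumor can take on some of the same genes, *Cd209a* among them.

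The promoters of the interferon-induced and MHC class II genes described further on are shown here because both groups differed between the libraries. Sequences are from RefSeq (GRCm38.p6, the assembly called mm10), run 5′ to 3′ on the strand of the gene from 250 bases before to 50 bases after its start, and capitals mark the motif searched. For the interferon-induced genes this was GAAA, any 2 bases and GAAA again on either strand, the core of the interferon-stimulated response element, and for MHC class II genes it was CTGATTGG on either strand, a form of the Y box.
*Cxcl10* at chr5:92348840-92349139, minus strand: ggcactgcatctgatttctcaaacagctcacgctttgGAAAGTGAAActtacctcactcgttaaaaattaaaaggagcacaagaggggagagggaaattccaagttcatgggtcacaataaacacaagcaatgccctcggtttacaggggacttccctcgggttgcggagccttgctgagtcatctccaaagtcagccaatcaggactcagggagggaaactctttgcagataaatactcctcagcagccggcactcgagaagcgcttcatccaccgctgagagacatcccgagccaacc
*Rsad2* at chr12:26456403-26456702, minus strand: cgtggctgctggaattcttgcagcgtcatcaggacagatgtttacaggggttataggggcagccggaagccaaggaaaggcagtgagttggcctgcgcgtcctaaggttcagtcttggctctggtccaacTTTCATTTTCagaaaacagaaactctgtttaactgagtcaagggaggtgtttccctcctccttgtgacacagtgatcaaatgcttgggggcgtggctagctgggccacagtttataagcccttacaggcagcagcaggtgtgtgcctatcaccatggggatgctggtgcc
*Ifit3* at chr19:34583279-34583578, plus strand: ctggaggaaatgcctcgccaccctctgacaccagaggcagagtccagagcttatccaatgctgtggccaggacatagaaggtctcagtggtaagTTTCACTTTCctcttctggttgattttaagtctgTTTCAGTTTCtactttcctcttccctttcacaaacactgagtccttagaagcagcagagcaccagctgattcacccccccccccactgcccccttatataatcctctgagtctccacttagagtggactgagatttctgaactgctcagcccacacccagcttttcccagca
*H2-Aa* at chr17:34287774-34288073, minus strand: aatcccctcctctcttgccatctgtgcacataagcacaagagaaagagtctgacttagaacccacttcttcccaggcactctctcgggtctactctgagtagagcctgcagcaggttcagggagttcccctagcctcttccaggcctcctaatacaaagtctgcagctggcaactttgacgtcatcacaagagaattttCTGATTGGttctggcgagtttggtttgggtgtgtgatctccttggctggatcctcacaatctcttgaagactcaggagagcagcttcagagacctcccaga
*H2-Eb1* at chr17:34305617-34305916, plus strand: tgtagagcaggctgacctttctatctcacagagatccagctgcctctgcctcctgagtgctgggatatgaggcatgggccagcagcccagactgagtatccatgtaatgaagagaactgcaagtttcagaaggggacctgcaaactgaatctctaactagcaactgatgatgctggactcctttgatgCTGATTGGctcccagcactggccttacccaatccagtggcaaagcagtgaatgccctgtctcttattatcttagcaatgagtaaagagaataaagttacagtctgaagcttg

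In promoters of the same length, the interferon motif stood in 3.99% of the 27025 genes of the promoter table and CTGATTGG in 4.70%. Among the measured type I interferon-stimulated genes with a promoter in the table, 11 of 23 held the interferon motif. Of the interferon-γ-induced genes, 9 of 15 held it, and of 18 glycolysis genes none did. CTGATTGG stood in 3 of the 9 MHC class II genes with a promoter, namely *H2-Aa*, *H2-Eb1* and *H2-Oa*, and in 1 of 18 glycolysis genes. These matches describe the windows and are not shown to be bound sites.

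The control library held 83 gated cells and the creatine library 54. Among the 7241 control cells under the mitochondrial limit they made up 1.15% (95% interval 0.914 to 1.42), and among the 6229 creatine cells 0.867% (0.652 to 1.13), so the intervals overlapped. The order turned when no UMI of the Cd3 or C1q genes was allowed, at 0.401% and 0.626%. It also turned with at least 1 UMI of *Flt3*, at 42 of 7241 control and 41 of 6229 creatine cells. With fewer than 2 UMIs of the cell cycle list it turned as well, at 28 and 27 cells of the same totals. Control members carried 1113982 UMIs in all and creatine members 623252, and the median cell held 12918 and 10528. For comparison, 60 control and 32 creatine cells met the matching gate for type 1 dendritic cells (cDC1s). The gate on *Ly6c2* and *Vcan* for classical monocytes held 155 and 220 cells, and the gate on *Ace* and *Adgre4* for nonclassical monocytes held 80 and 142. No cell could fall into more than 1 gate, since their limits exclude each other. The 2 libraries shared 30 barcode sequences, and 1 cDC2 barcode was also found in the other library.

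The markers of the lineage were present in both libraries, and *Mgl2*, *Kmo* and *H2-DMb2* were also found in cDC1s, as given further on. *Clec10a*, *Mgl2* and *H2-DMb2* stood lower in creatine cDC2s, while *Cd209a*, *Kmo* and *Ffar2* had overlapping intervals. *Cd209a*, a C-type lectin that binds pathogen sugars and was part of the gate, stood at 944 CPM (its UMIs per 1000000 UMIs of the gated cells, with a 95% Poisson interval of 888 to 1003) in control cDC2s and 937 CPM (863 to 1016) in creatine cDC2s. Single cells held 2 to 47 UMIs of it in the control library, with a median of 10, and 2 to 41 in the creatine library, with a median of 6. The gene lies at chr8:3743397-3748984 on the minus strand (GENCODE M21, GRCm38), and none of the 50-base windows at its 3′ end was shared with another gene.

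*Clec10a*, a galactose-binding C-type lectin, stood at 483 CPM (443 to 526) in control cDC2s and 226 CPM (190 to 267) in creatine cDC2s. *Mgl2*, its neighbour on chromosome 11, stood at 202 CPM (176 to 230) and 99.5 CPM (76.3 to 128). Of the 3′ windows of *Clec10a*, 13.8% were shared with *Mgl2*, so a part of their reads cannot be told apart. Both lectins were lower in the creatine library, with intervals that did not overlap.

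*Kmo*, an enzyme of tryptophan breakdown, stood at 161 CPM (138 to 186) and 132 CPM (105 to 163). *Ffar2*, a receptor for short-chain fatty acids, stood at 116 CPM (96.7 to 138) and 94.7 CPM (72.1 to 122). For these 2 genes the intervals of the libraries overlapped. *H2-DMb2*, a subunit of the chaperone that loads peptides onto MHC class II, was part of the gate and stood at 261 CPM (232 to 293) against 97.9 CPM (74.9 to 126).

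Which genes brought cells through the gate differed between the libraries. *H2-DMb2* had a UMI in 73.5% of control members (62.7 to 82.6) and in 33.3% of creatine members (21.1 to 47.5). *Flt3* went the other way, with a UMI in 50.6% (39.4 to 61.8) and 75.9% (62.4 to 86.5). *Zbtb46*, a transcription factor of conventional dendritic cells, had a UMI in 31.3% and 22.2%.

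Shares of cells with a UMI were also taken after each cell was thinned to 2000 UMIs, which left out 1 control cell. *Clec10a* was then found in 47.6% of control members (36.4 to 58.9) and 24.1% of creatine members (13.5 to 37.6), where T cells, which should lack it, gave 0.945% and 0.67%. *Mgl2* was found in 15.9% and 3.70%, against 0.432% and 0.128% of T cells, and *Kmo* in 18 of 82 and 12 of 54 members, against 0.351% and 0.191%. Without thinning the shares for *Clec10a* were 75.9% and 66.7%. The median T cell held 8527 UMIs (control) and 9551 UMIs (creatine), against 12918 and 10528 for the median cDC2.

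**Figure D1:**
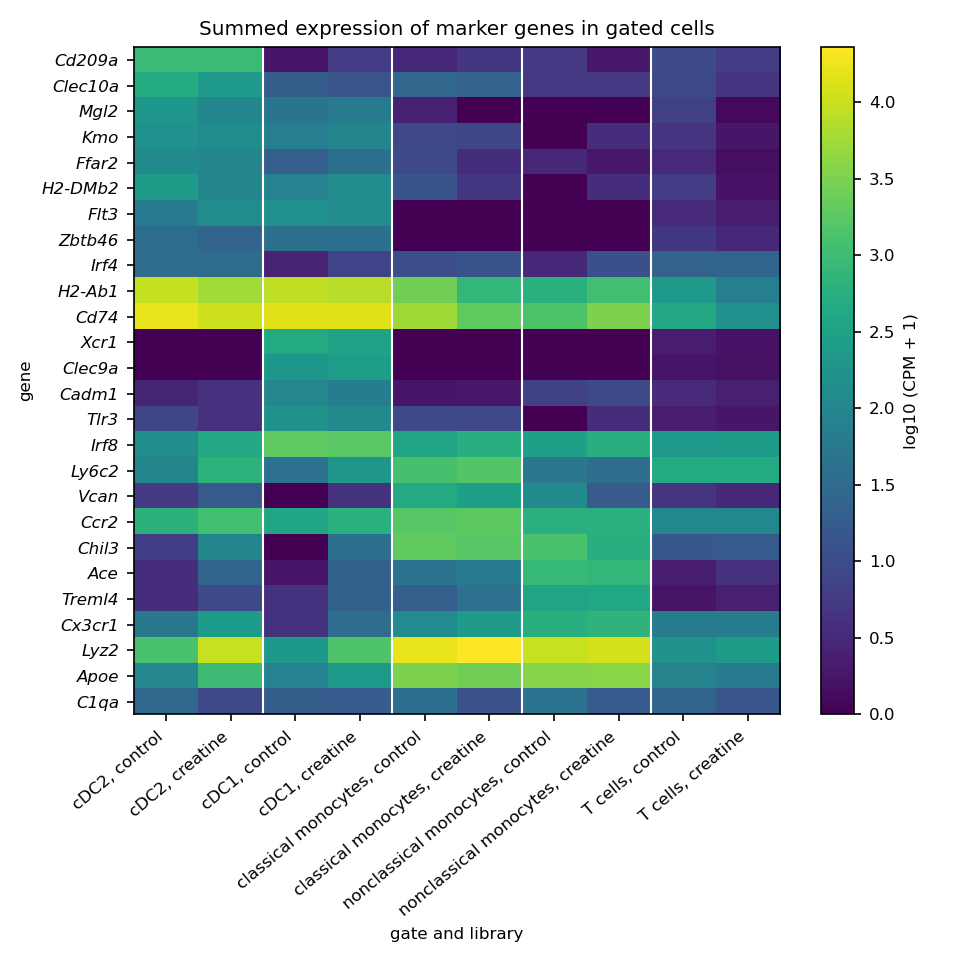
Colour gives log10 of CPM + 1 for marker genes (rows) in UMIs summed over the cells of each gate and library (columns); genes of the gates, such as *Cd209a*, *Xcr1*, *Ly6c2* and *Ace*, were set by the choice of cells. *Clec10a*, *Mgl2* and *Ffar2* are brightest in cDC2s, while *Lyz2* and *Ly6c2* are brighter in creatine than in control cDC2s.

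Cells close to the limits of the gate are given as a description. A single UMI of *Cd209a*, 1 below the limit, was found in 15 control and 9 creatine cells that met all other terms, and exactly 2 UMIs in 7 and 9 members. *Clec10a* stood at 375 CPM just outside and 269 CPM just inside in the control library. In the creatine library the values were 49.4 and 69.6 CPM. A sum of *Flt3*, *Zbtb46* and *H2-DMb2* of exactly 1 was found in 18 of 83 control members and 22 of 54 creatine members. In these cells *Lyz2*, a lysozyme of monocytes and macrophages, stood at 6412 and 17109 CPM, against 390 and 5261 CPM in members with a sum of 2 or more.

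A group of creatine members had little MHC class II. Fewer than 10 UMIs of *H2-Ab1*, the β chain of the class II molecule I-A, were held by 5 of 83 control members and 17 of 54 creatine members. In the 17 creatine cells *Lyz2* stood at 24297 CPM and *Ly6c2*, a surface protein of classical monocytes, at 1806 CPM. The classical monocytes of the creatine library had 23024 and 1550 CPM. In the 5 control cells *Lyz2* stood at 16654 CPM. *Flt3* stood at 185 CPM in the 17 creatine cells, while *H2-DMb2* and *Zbtb46* each had 1 UMI over all 17. The low class II level of these cells was fixed by the way they were picked. *Clec10a* stood at 86.3 CPM in the 17 cells, and *Mgl2* had 5 UMIs over them. With *Lyz2* and *Ly6c2* at the level of classical monocytes, the markers went against the name cDC2 for these cells, and no other name is given to them. They stayed in the gate as its rule has it, and a stricter rule would leave them out.

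**Figure D2:**
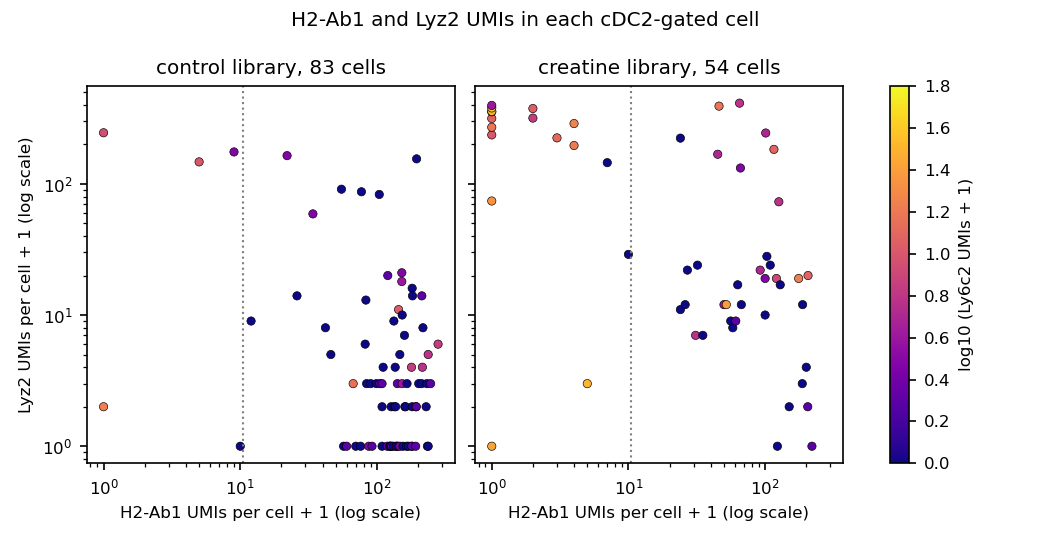
Each point is 1 cDC2-gated cell, with its *H2-Ab1* UMIs + 1 on the horizontal and *Lyz2* UMIs + 1 on the vertical log axis, coloured by log10 of *Ly6c2* UMIs + 1; the dotted line marks 10 UMIs of *H2-Ab1*. Left of the line lie 5 of 83 points in the control panel and 17 of 54 in the creatine panel, most of the latter high in *Lyz2*.

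The question of the 2 libraries was which genes differ in cDC2s of creatine-treated tumors. Of 5880 genes with at least 30 UMIs over both libraries, 969 were at least 1.5-fold higher in the creatine library, which is 16.5% of the genes, and 615 were at least 1.5-fold lower, which is 10.5%. With TMM scaling, another way to set the libraries to a common level, 736 genes were higher and 789 lower, so the larger side changed. The median log2 ratio over all 5880 genes was 0.07 with CPM. The ratio compares CPM in 1 library with CPM in 1 other, and fewer cells of a kind within the gate cannot be told apart from less RNA per cell. Where 2 values follow each other without a label, the control library comes first, and log2 ratios are creatine over control.

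Macrophage and monocyte markers had the highest list medians. Of 13 measured classical monocyte markers 9 were at least 1.5-fold higher and none was lower, with a median log2 ratio of 1.28. *Ly6c2* stood at 101 CPM (83.6 to 122) and 663 CPM (600 to 730). *Fn1*, which encodes fibronectin, stood at 55.7 CPM (42.7 to 71.3) and 525 CPM (469 to 585). *F13a1*, the A chain of coagulation factor XIII, gave a log2 ratio of 2.37 (2.00 to 2.76). All of these were higher in the creatine library with no overlap of intervals, although 34.6% of the 3′ windows of *Ly6c2* were shared with other genes, *Ly6c1* among them. *Ms4a4c* and *Ly6i*, on the same list, gave 0.30 and 0.25, the former −0.34 without *Ly6c2* and *Vcan* UMIs, and *Cd14*, the co-receptor for bacterial lipopolysaccharide, gave −0.32 (−1.39 to 0.67). Of 6 measured nonclassical monocyte markers 3 were higher and none lower, with a median of 1.23.

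All 6 measured macrophage markers outside the gate were at least 1.5-fold higher, with a median of 1.83. *Lyz2* stood at 1297 CPM (1231 to 1366) in control cDC2s and 9781 CPM (9537 to 10030) in creatine cDC2s, a log2 ratio of 2.91. At least 10 UMIs of it were held by 18 of 83 control members, or 21.7% (13.4 to 32.1), and 40 of 54 creatine members, or 74.1% (60.3 to 85.0). In T cells the log2 ratio of *Lyz2* was 0.53 and its levels were 171 and 246 CPM. The part of background in the levels of the gated cells was not tested. Of the 3′ windows of *Lyz2* 16.9% were shared with *Lyz1*.

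*Apoe*, a lipid carrier, stood at 105 CPM (86.9 to 126) and 987 CPM (910 to 1068). One creatine cell held 158 of the 615 *Apoe* UMIs, and the log2 ratio was 3.30 with the top cell of each library left out. *Csf1r*, the receptor for the macrophage growth factor CSF1, gave 1.57 (1.21 to 1.95). *C1qa*, which the gate limited, went the other way, with a UMI in 27 of 83 control and 5 of 54 creatine members.

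Without the members that held any *Ly6c2* or *Vcan* UMI, 47 control and 21 creatine cells were left. Since cells were left out here by 2 monocyte genes, the choice itself lowers such genes in the cells that remain. The median of the classical monocyte list was then 0.65 and that of the macrophage list 1.14. At least 10 UMIs of *Lyz2* were held by 7 of the 47 and 13 of the 21 cells. With at least 10 UMIs of *H2-Ab1* required, which left 78 and 37 cells, the medians were 0.95 and 1.71, and *Lyz2* stood at 815 and 4672 CPM.

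MHC class II genes were lower in the creatine library over all members. Of 13 measured genes 7 were at least 1.5-fold lower and 1 was higher, with a median log2 ratio of −0.60. *H2-DMb2*, a class II gene, was 1 way into the gate, with a UMI in 73.5% of control and 33.3% of creatine members. The choice of members thus drew in part on class II, and its part in the difference was not tested. *H2-Ab1* stood at 9650 CPM (9469 to 9834) in control cDC2s and 5731 CPM (5545 to 5922) in creatine cDC2s. *Cd74*, the invariant chain that guides class II molecules to the endosome, stood at 16736 CPM (16497 to 16978) and 10999 CPM (10740 to 11262). The level of these genes varied widely between creatine members, where single cells held 0 to 219 UMIs of *H2-Ab1* with quartiles of 3.25 and 106.5, against quartiles of 84.5 and 178.5 in the control library.

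*H2-Aa* and *H2-Eb1*, whose promoters are printed above, gave log2 ratios of −0.60 (−0.66 to −0.55) and −0.93 (−0.99 to −0.87). *H2-Ob*, a subunit of the inhibitor of peptide loading, gave −1.54 (−2.41 to −0.75), and *March1*, a ubiquitin ligase that removes class II molecules from the surface, was the member that was higher, at 0.60 (0.18 to 1.02). *Ciita*, the master activator of class II transcription, stood at 531 and 374 CPM, a log2 ratio of −0.51 (−0.73 to −0.29). *Ifi30* of the same list was not analysed here.

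The size of the difference in class II varied with the cells counted. In members with a *Flt3* UMI the median was −0.66, in those with a *Ffar2*, *Mgl2* or *Kmo* UMI it was −0.32, and without *Ly6c2* and *Vcan* UMIs it was −0.23. With at least 10 UMIs of *H2-Ab1* per cell the median of the list, *H2-Ab1* left out, was −0.17, and *Cd74* gave −0.25 (−0.30 to −0.21). That last choice picks cells by a class II gene, so it narrows the difference by its own construction and says nothing of the cause. T cells, in which class II UMIs are background, showed a median of −1.02, and *H2-Ab1* there stood at 226 and 75.4 CPM. The part of this background in the result was not tested.

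MHC class I genes moved little. Of 17 measured genes 2 were at least 1.5-fold higher and none lower, with a median of 0.12. *Tapbp*, which edits the peptides of class I molecules, gave 0.61 (0.36 to 0.86), and *B2m*, the common light chain, gave 0.17 (0.09 to 0.26). *H2-D1* stood at 1754 and 2325 CPM.

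Genes induced by interferons were higher as a group. Of 31 measured type I interferon-stimulated genes 24 were at least 1.5-fold higher, none was lower, and the median log2 ratio was 0.86. *Rsad2*, an antiviral enzyme, stood at 41.3 and 173 CPM, a log2 ratio of 2.07 (1.56 to 2.60). *Ifit3*, which binds viral RNA complexes, stood at 59.2 and 212 CPM, a ratio of 1.84 (1.40 to 2.29). *Irf7*, the transcription factor that amplifies type I interferon, stood at 134 and 297 CPM. The 7 genes short of 1.5-fold were *Ifi203* at 0.55, *Isg20* and *Ifi35* at 0.46, *Stat2* at 0.37, *Dhx58* at 0.02, *Ifi44* at −0.05 and *Oas1a* at −0.48.

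Of 22 measured interferon-γ-induced genes 14 were at least 1.5-fold higher and none was lower by that size, with a median of 0.82. *Gbp2*, a GTPase of cell-autonomous defence, stood at 144 and 380 CPM, a log2 ratio of 1.40 (1.11 to 1.70). *Socs1*, the feedback inhibitor of interferon signalling, gave 1.41 (0.93 to 1.91), and *Irf1* gave 1.31 (0.95 to 1.68). *Cd274*, which encodes PD-L1, gave 0.04 (−0.65 to 0.70).

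In T cells the type I list had a median of 0.50 and the interferon-γ list one of 0.23, so both lists were higher in that gate too. The type I list kept a median of 0.70 in members with at least 10 UMIs of *H2-Ab1* and 0.47 in those without *Ly6c2* and *Vcan* UMIs. The interferon-γ list had a median of 0.04 in members with a *Flt3* UMI, of which there were 42 and 41.

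Of 10 measured chemokines 5 were at least 1.5-fold higher, namely *Cxcl10*, *Cxcl9*, *Ccl2*, *Ccl5* and *Ccl6*, and none was lower by that size, with a median of 0.67. *Cxcl10*, a ligand of CXCR3 on activated T cells, had the highest ratio among genes with at least 100 UMIs over both libraries whose intervals did not overlap. It stood at 92.5 CPM (75.5 to 112) in control cDC2s and 918 CPM (844 to 996) in creatine cDC2s, a log2 ratio of 3.31 (3.01 to 3.63). Its UMIs lay in few cells, 20 of 83 and 15 of 54, and 1 creatine cell held 170 of 572. With the top cell of each library left out the ratio was 3.24. In the other gates its log2 ratio was 3.75 in cDC1s, 4.70 in nonclassical monocytes, 0.71 in classical monocytes and 0.34 in T cells. *Cxcl9*, a second ligand of the same receptor, stood at 283 and 555 CPM and was found in 30.1% and 33.3% of members. Its ratio changed sign in members with fewer than 2 cell cycle UMIs, as given further on.

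*Ccl6* gave 0.86 (0.66 to 1.07) and *Ccl5*, a chemokine of activated T cells, gave 1.53 (1.04 to 2.02). For *Ccl5*, which T cells carry at 2954 and 4767 CPM, the ratio was −0.20 once the top cell of each library was left out. *Ccl2*, the ligand of CCR2 on monocytes, gave 1.74 (0.78 to 2.75) from 15 and 28 UMIs, and −1.07 (−4.29 to 1.13) in members without *Ly6c2* and *Vcan* UMIs. *Cxcl16*, the ligand of CXCR6 on T cells, stood at 99.6 and 67.4 CPM, a log2 ratio of −0.56 (−1.11 to −0.04).

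The receptors and sensors of innate signals leaned the same way. Of 16 measured pattern receptor genes 10 were at least 1.5-fold higher and 1 was lower, with a median of 0.70. *Tlr13*, a sensor of bacterial ribosomal RNA, gave 1.59 (0.73 to 2.49), and *Mb21d1*, which encodes the DNA sensor cGAS, gave 1.40 (0.66 to 2.17). *Tlr1* was the lower member, at −0.83 (−1.90 to 0.14). Of 10 inflammasome genes 6 were higher and 1 was lower. *Casp4*, the protease that senses cytosolic lipopolysaccharide, stood at 22.4 CPM (14.5 to 33.1) and 128 CPM (102 to 160), and *Gsdmd*, the pore protein it cuts, at 39.5 and 99.5 CPM. *Il1b* was the lower member, at 151 and 77.0 CPM, a log2 ratio of −0.97 (−1.46 to −0.50).

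Of 19 cytokine receptor genes 9 were higher and 1 was lower. *Ifnar2*, a chain of the type I interferon receptor, gave 1.07 (0.57 to 1.59) and *Ifngr1* gave 0.73 (0.45 to 1.01). The lower member was *Il1r2*, the decoy receptor of interleukin-1, at 181 CPM (157 to 208) and 48.1 CPM (32.5 to 68.7), and it was lower in all other gates too, as given further on. Of 6 Fc receptor genes 3 were higher, *Fcgr1*, *Fcgr3* and *Fcgr4*, and *Fcgr2b*, the inhibitory receptor, gave −0.20 (−0.50 to 0.09).

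Costimulation was mixed. Of 9 measured genes 3 were at least 1.5-fold higher and 1 was lower, at a log2 ratio of −1.02. *Cd40*, the receptor for CD40 ligand of helper T cells, stood at 57.5 and 104 CPM, a log2 ratio of 0.86 (0.34 to 1.38). *Icam1*, an adhesion molecule of the synapse, gave 1.60 (1.02 to 2.20). *Cd86*, a ligand of CD28, stood at 83.5 and 65.8 CPM, a log2 ratio of −0.34 (−0.91 to 0.20) that did not pass 1.5-fold.

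**Figure D3:**
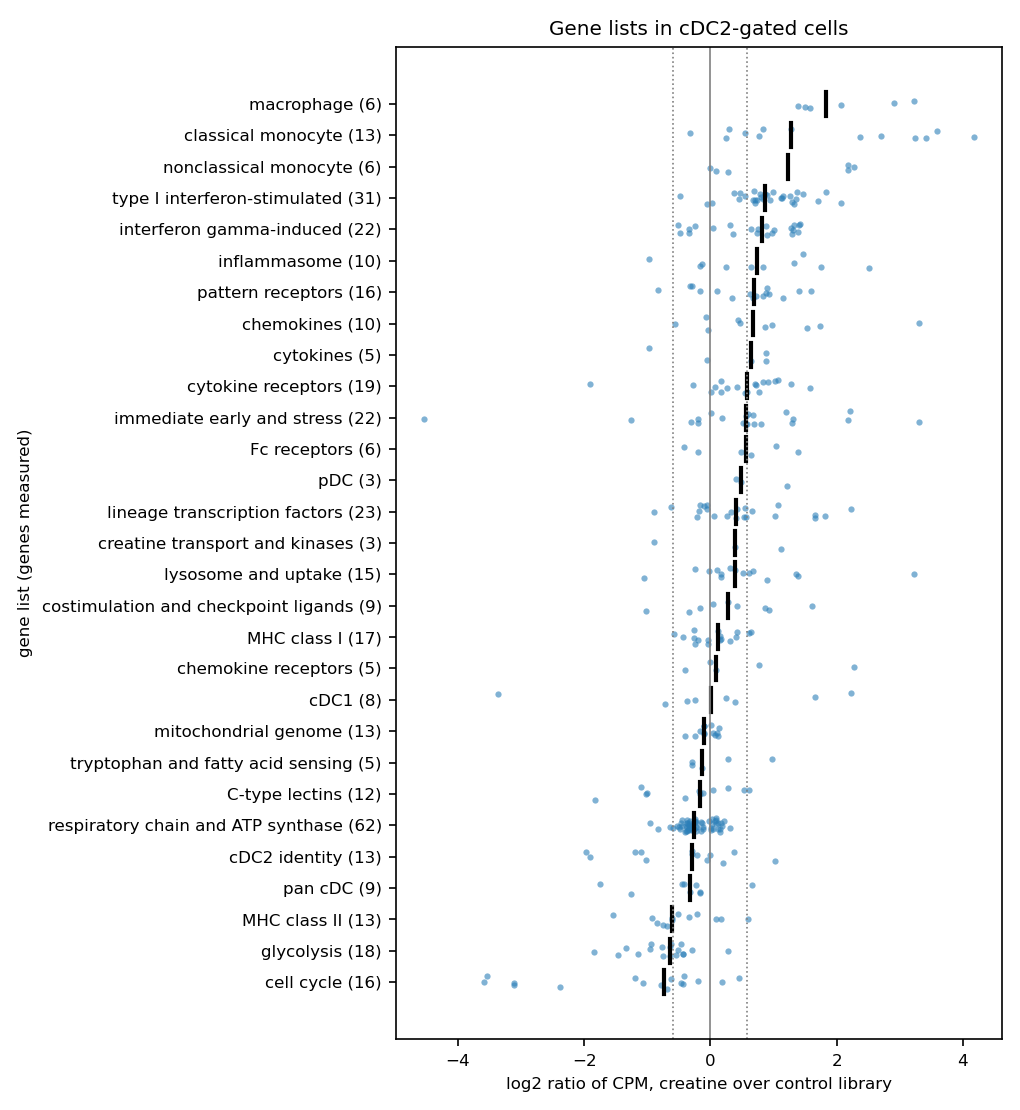
Each point is 1 gene of a list, placed at its log2 ratio of CPM in cDC2-gated cells, creatine over control; black bars are list medians, dotted lines mark 1.5-fold either way, and a gene with no UMI in 1 library is not drawn. The macrophage (1.83) and classical monocyte (1.28) lists lie farthest right, the cell cycle (−0.73) and glycolysis (−0.64) lists farthest left.

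Of the 13 cDC2 identity genes outside the gate, 5 were at least 1.5-fold lower in the creatine library and 1 was higher, with a median of −0.29. The lower ones were *Clec10a*, *Mgl2*, *Il1r2*, *Ltb*, which encodes lymphotoxin β, at −1.97 (−3.36 to −0.82), and *Tnip3*, an inhibitor of NF-κB signalling, at −1.20 (−1.76 to −0.67). The higher one was *Notch2*, a receptor needed by a subset of cDC2s, at 61.0 and 124 CPM. *Sirpa* gave −0.01 (−0.39 to 0.35) and *Irf4* gave −0.06 (−0.89 to 0.75).

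Among C-type lectins the 4 lower genes of 12 were *Clec10a*, *Mgl2*, *Cd209d* and *Clec4n*, and 1 gene was higher, with a list median of −0.17. *Cd209d*, which lies beside *Cd209a* on chromosome 8, stood at 132 and 65.8 CPM. *Clec4n*, which encodes dectin-2, stood at 136 CPM (116 to 160) and 38.5 CPM (24.7 to 57.3). Its log2 ratio was −1.83 (−2.51 to −1.20) in cDC2s, −2.09 in T cells, −2.06 in classical monocytes and −0.30 in nonclassical monocytes, but 1.95 in cDC1s.

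Transcription factors of the lineages shifted in part. *Irf8*, needed by cDC1s and monocytes, stood at 137 and 433 CPM, a log2 ratio of 1.66 (1.37 to 1.95). *Batf3*, a partner of IRF8 in cDC1s, stood at 21.5 and 101 CPM, a ratio of 2.23 (1.53 to 2.97). The list of cDC1 markers did not shift as a group. Of its 8 measured genes outside the gate 2 were at least 1.5-fold higher and 2 were lower, with a median of 0.003. *Cebpb*, a factor of myeloid cells, gave 1.82 (1.44 to 2.21) and *Nfil3* gave 1.66. *Id2*, a partner of dendritic cell factors, was lower at 623 and 335 CPM, a ratio of −0.89 (−1.12 to −0.67). In all, 7 of 23 factors were higher and 2 were lower. In members with at least 10 UMIs of *H2-Ab1*, *Irf8* gave 1.38 (1.01 to 1.75) and *Id2* gave −0.60 (−0.84 to −0.37).

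Genes of glycolysis were lower in the creatine library. Of 18 measured genes 11 were at least 1.5-fold lower and none was higher, with a median of −0.64. *Eno1*, an enolase, stood at 428 and 193 CPM, a log2 ratio of −1.15 (−1.45 to −0.86). *Aldoc*, an aldolase, gave −1.84 (−2.86 to −0.96), and *Bnip3*, a mitochondrial protein induced by low oxygen, gave −1.46 (−2.45 to −0.59). *Gapdh* stood at 1406 and 902 CPM. The median was between −0.84 and −0.49 under all other choices of cells and scaling that were run, and it was −0.20 in T cells.

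Respiration differed less. Of 62 genes for respiratory complexes and the ATP synthase 4 were lower by 1.5-fold, *Ndufc1*, *Ndufv3*, *Uqcr10* and *Cox6c*, and none was higher, with a median of −0.25. Of 13 genes of the mitochondrial genome none passed 1.5-fold either way. Among creatine genes *Ckb*, the brain-type creatine kinase, stood at 419 and 226 CPM, a log2 ratio of −0.89 (−1.17 to −0.62). *Gatm* and *Gamt*, the enzymes of creatine synthesis, gave 0.39 (−0.27 to 1.04) and 1.12 (0.01 to 2.25), the latter from 14 and 17 UMIs. The creatine transporter gene *Slc6a8* had 1 UMI in each library, too few to compare.

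Cell cycle genes were lower in the creatine library, from few cells. Of 16 measured cell cycle genes 10 were lower by 1.5-fold and none was higher, with a median of −0.73, which was −2.11 without the 5% of cells with the most UMIs. *Ube2c*, a ubiquitin-conjugating enzyme of mitosis, stood at 110 CPM (91.8 to 132) and 12.8 CPM (5.54 to 25.3), and its UMIs lay in 10 of 83 and 5 of 54 cells. *Mki67*, the proliferation marker Ki-67, was found in 20.5% of control members (12.4 to 30.8) and in 7 of 54 creatine members, and 1 creatine cell held 72.2% of its UMIs. *Hist1h2ap*, a histone gene, gave −1.84 (−2.23 to −1.46) in cDC2s and −2.05 in T cells. One control cell held 247 of its 421 UMIs and 1 creatine cell 55 of 66. With the top cell of each library left out its ratio was −3.11. In members with a *Flt3* UMI its ratio was 0.44.

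Of 22 genes on the list of immediate early and stress genes 10 were at least 1.5-fold higher, all of them immediate early genes, and 3 were lower, *Ier3*, *Hspa1a* and *Hspa1b*. *Egr1*, a transcription factor of the immediate early response, stood at 16.2 CPM (9.58 to 25.5) and 159 CPM (129 to 193), and *Nr4a1* and *Klf2* gave log2 ratios of 2.17 (1.42 to 2.98) and 2.21 (1.69 to 2.76). *Hspa1a*, an inducible chaperone, had 83 UMIs in control cDC2s and 2 in creatine cDC2s. The 83 lay in 7 of 83 cells, 34 of them in 1 cell, so that the difference rests on few control cells. *Hspa1b*, its near-identical neighbour, had 60 and 0, and reads of the pair cannot be fully told apart. The other heat shock genes measured did not pass 1.5-fold, with *Hspa8* at 0.18, *Hsp90aa1* at −0.20, *Hsp90ab1* at −0.31 and *Dnajb1* at −0.19. Sorting and dissociation are known to raise both kinds of genes, and their part was not tested.

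Among the genes with the largest ratios *Gm10076*, *Dab2*, *Il1r2* and *Hist1h2ap* were at least 1.5-fold lower, and *Casp4* at least 1.5-fold higher, in cDC2s and in each of the 4 other gates. *Gm10076* stood at 2348 and 627 CPM, a log2 ratio of −1.90 (−2.06 to −1.75), and gave −1.69 in T cells. *Dab2*, an endocytic adaptor, gave −2.75 (−3.55 to −2.03) in cDC2s and −1.82 in T cells. *Il1r2* gave −1.91 in cDC2s, −1.09 in cDC1s, −3.02 in classical monocytes, −3.25 in nonclassical monocytes and −1.32 in T cells. *Casp4* gave 2.52 in cDC2s and 1.20 in T cells.

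*Ifitm1* and *Cd72* differed in direction between gates, which was not tested. *Ifitm1*, an interferon-induced membrane protein, went against the interferon lists in cDC2s at 1517 CPM (1446 to 1591) and 379 CPM (332 to 430), a log2 ratio of −2.00. It was also lower in T cells, at 46.0 and 23.1 CPM, and gave −0.46 in classical monocytes, but 0.36 in cDC1s and 0.20 in nonclassical monocytes. *Cd72*, a lectin known from B cells, gave −2.29 (−3.34 to −1.38) in cDC2s but 1.49 in cDC1s. Of the remaining genes in cDC2s, *Sept3*, a septin, stood at 149 CPM (127 to 173) and 14.4 CPM (6.60 to 27.4), and *Cenpa*, the histone of the centromere, gave −1.98 (−2.91 to −1.17). *Hpgd*, which breaks down prostaglandins, gave 2.56 (1.88 to 3.28) and was found in 12 of 83 and 24 of 54 cells, and *Selenop*, a selenium carrier, gave 2.33.

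Of the markers of other cell types, those of macrophages and monocytes were abundant in the gated cells and those of lymphoid, neutrophil and melanoma cells were not. The 14 macrophage markers summed to 1910 and 7151 UMIs (1715 and 11474 CPM), led by *Lyz2*, with *Mertk* at 0 in the creatine library. The 14 classical monocyte markers summed to 3148 and 4108 UMIs (2826 and 6591 CPM), led by *Plac8*. The 11 nonclassical monocyte markers summed to 316 and 436 UMIs (284 and 700 CPM). The 17 cDC1 markers summed to 1494 and 935 UMIs (1341 and 1500 CPM), led by *Naaa*, with *Xcr1* and *Clec9a* at 0 by the gate. The part of other cells in these levels was not tested.

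Of 11 T cell markers 10 and 9 had a UMI, with 63 and 37 UMIs in all (56.6 and 59.4 CPM), of which *Trbc2* was the most abundant. The gate limited the Cd3 genes, so this sum was held down in part by the choice of cells. The 7 NK cell markers summed to 20 and 70 UMIs (18.0 and 112 CPM), with *Gzma* at 40 in the creatine library. The 7 B cell markers summed to 122 and 111 UMIs (110 and 178 CPM), nearly all *Ighm*, and *Ms4a1* was at 0 in both. The 6 neutrophil markers summed to 12 and 19 UMIs (10.8 and 30.5 CPM), with *Retnlg* and *Cxcr2* at 0. The 5 melanoma markers summed to 28 and 11 UMIs (25.1 and 17.6 CPM), led by *Dct*, with *Tyr* and *Mlana* at 0. Of the 8 plasmacytoid dendritic cell markers 7 and 6 had a UMI, with 572 and 451 UMIs, led by *Bst2*. The 11 markers of Ccr7-type dendritic cells summed to 221 and 100 UMIs, led by *Tmem123*, with *Apol7c* at 0 in both. *Siglech*, *Fscn1* and *Cacnb3* were limited by the gate too.

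The same lists were taken in the other gates to show where cDC2s stood. The median of the classical monocyte list was 1.58 in cDC1s, 0.13 in classical monocytes, −0.14 in nonclassical monocytes and 0.02 in T cells. For the macrophage list the medians were 2.05, −0.36, 0.21 and −0.81 in the same order, so both dendritic cell gates lay above the monocytes and T cells for these lists. MHC class II gave −0.06 in cDC1s, −1.11 in classical monocytes and 0.56 in nonclassical monocytes. The type I interferon list gave 1.69 in cDC1s, 0.22 in classical monocytes and 0.91 in nonclassical monocytes. The interferon-γ list gave 1.40, 0.53 and 1.32 in the same order. Glycolysis genes gave −0.42, −0.92 and −0.22. All these comparisons share the 2 libraries, and the differences between gates were not tested.

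**Figure D4:**
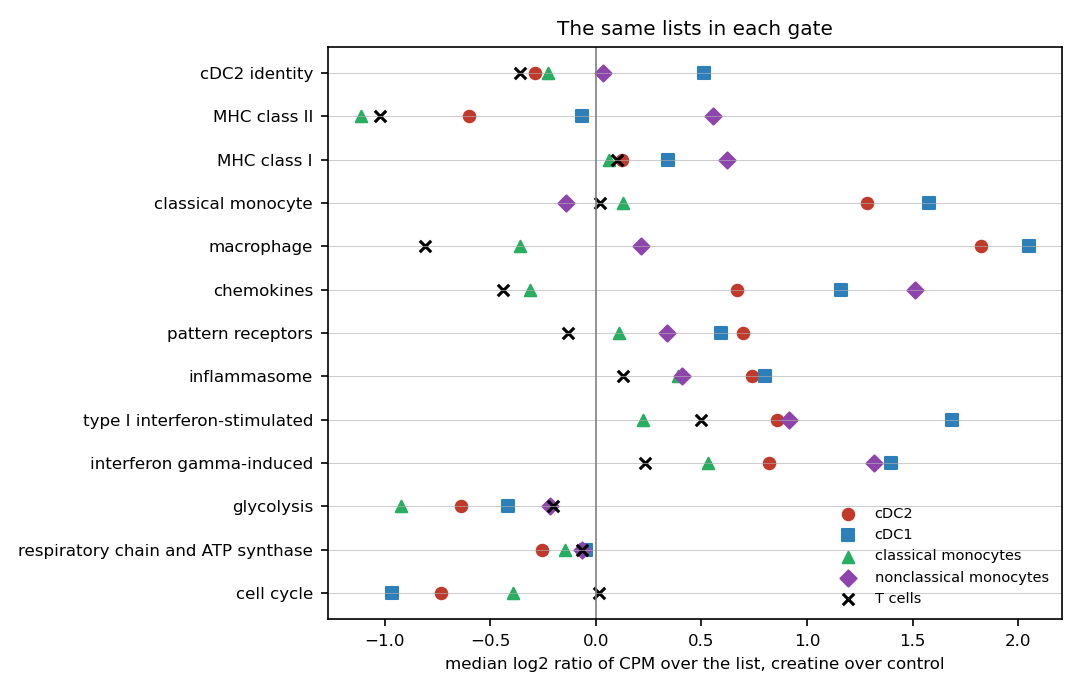
Median log2 ratio of CPM, creatine over control, over the measured genes of each list (rows) in each gate (symbols). For the macrophage list cDC2s (1.83) and cDC1s (2.05) lie to the right of classical monocytes (−0.36) and T cells (−0.81), while for glycolysis all gates lie left of 0.

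Against cDC1s, the other conventional lineage, cDC2s were richer in lectins and monocyte-associated genes and poorer in genes of the cDC1 program. The gates were set on UMIs of the same cells, so these are descriptions and no test. Of 7940 genes 337 (4.24%) were at least 2-fold higher in cDC2s in both libraries and 339 (4.27%) at least 2-fold lower. *Clec10a* stood at 483 CPM in control cDC2s against 18.0 in control cDC1s, and at 226 against 13.3 in the creatine library. *Tmem176b*, an ion channel protein of myeloid cells, stood at 226 against 13.7 CPM and 446 against 31.5. *Mrc1*, the mannose receptor, stood at 78.1 against 7.71 CPM and 59.4 against 3.32. Other markers of the lineage stood closer. *Kmo* stood at 161 against 75.3 CPM and, for creatine, 132 (105 to 163) against 96.2 (73.1 to 124). *Mgl2* stood at 202 against 48.8 CPM and 99.5 (76.3 to 128) against 64.7 (46.0 to 88.4). *H2-DMb2*, part of both gates, stood at 261 against 84.8 CPM and 97.9 (74.9 to 126) against 124 (97.9 to 156). For each of these genes the creatine intervals overlapped. *Cd209d* had no UMI in cDC1s. With 0 set at a floor of 3 counts per library and gate, it was 51.4-fold and 13.2-fold higher in cDC2s. Its exact log2 ratios had lower limits of 5.37 and 3.36.

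Also among the genes most above cDC1s were *F13a1*, *Fn1*, *Fcor*, *Ccl9* and *Hpgd*. *Ccl9*, a chemokine of myeloid cells, stood at 268 against 28.3 CPM and 372 against 24.9. All 14 measured cDC1 markers outside the gates were lower in cDC2s in both libraries. *Tlr3*, the sensor of double-stranded RNA, stood at 7.18 against 176 CPM and 3.21 against 114. *Cadm1*, an adhesion molecule, had 2 UMIs in cDC2s of each library, against 120 and 41 in cDC1s. *Gcsam* had no UMI in cDC2s of either library and was 35.6-fold and 17.2-fold lower with 0 set at the same floor. Its exact log2 ratios had upper limits of −4.83 and −3.76. *Itgae*, which encodes CD103, stood at 0 against 142 CPM and 12.8 against 99.5, with all 8 creatine UMIs in 1 cell.

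*Irf8* stood at 137 CPM in cDC2s against 1929 in cDC1s of the control library, and at 433 against 1753 for creatine. *Irf4*, the factor of the type 2 lineage, stood at 35.0 against 1.71 CPM and 33.7 against 6.64. MHC class II genes were near the level of cDC1s, with list medians of 0.22 in the control library, and −0.32 for creatine. Cell cycle genes were lower than in cDC1s for 13 of 20 measured genes, *Mki67* among them at 88.9 against 264 CPM and 57.8 against 101. Type I interferon-stimulated genes were at least 2-fold higher for 8 of 31, with medians of 1.40 and 0.54.

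Against classical monocytes, 291 of 8566 genes (3.4%) were at least 2-fold higher in cDC2s in both libraries and 354 (4.13%) at least 2-fold lower. *Mgl2* stood at 202 against 1.47 CPM in the control library, and 99.5 against 0 for creatine. *Kmo* stood at 161 against 7.36 CPM and 132 against 7.09, and *Ffar2* at 116 against 8.10 CPM and 94.7 against 2.66. *H2-Oa*, a subunit of the inhibitor of peptide loading, stood at 155 against 1.47 CPM and 86.6 against 2.22. *Ccnd1*, a cyclin of G1, stood at 391 against 23.6 CPM and 295 against 14.6. *Cd7*, *Ctnnd2*, *Cdh1*, *Cd209d* and *Sept3* completed the 10 highest.

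As a group, 8 of 13 MHC class II genes were higher than in classical monocytes, with medians of 1.60 and 1.88, and 13 of 19 cell cycle genes, with medians of 2.19 and 2.18. Since *H2-DMb2* was part of the cDC2 gate, the choice of cells itself drew in part on class II. *Chil3*, a chitinase-like protein of monocytes, stood at 5.39 against 1967 CPM and 97.9 against 1711. *Ccl2*, the ligand of CCR2, stood at 13.5 against 644 CPM and 44.9 against 330. *Thbs1*, which encodes thrombospondin 1, stood at 21.5 against 325 CPM and 3.21 against 89.6. *Fpr2* and *C5ar1*, receptors for formylated peptides and complement C5a, had no UMI in control cDC2s and 1 each in creatine cDC2s. *Msr1*, *Trem3*, *Gm5150*, *Ldhb* and *Cd177* completed the 10 lowest.

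For monocyte and macrophage markers the distance to classical monocytes was smaller in the creatine library. It was also smaller for the cDC2 identity list (medians of 2.66 and 1.49) and for markers shared by conventional dendritic cells (2.87 and 2.24). For MHC class II (1.60 and 1.88) it was not, and for cell cycle genes (2.19 and 2.18) it was about equal. *Lyz2* stood at 1297 CPM in cDC2s against 16523 in classical monocytes of the control library, and at 9781 against 23024 for creatine. The median of the classical monocyte list was −2.59 in the control library, and −1.29 for creatine, and that of the macrophage list −2.82 and −0.87. These pairs hold the same creatine and control cells as the ratios above and are no separate evidence.

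Against nonclassical monocytes, which patrol vessels, 415 of 7775 genes (5.34%) were at least 2-fold higher in both libraries and 607 (7.81%) at least 2-fold lower. *Ccnd1*, *Ffar2*, *Clec10a*, *Mgl2*, *Kmo*, *Cd209d*, *Cd7*, *Il1r2*, *Cd24a* and *Klrb1b* were the 10 highest. *Clec10a* stood at 483 against 4.25 CPM and 226 against 4.48. *Mgl2* had no UMI in nonclassical monocytes, which makes it at least 31.7-fold and 37.0-fold higher in cDC2s. MHC class II gave medians of 3.55 and 1.84, with the same limit from *H2-DMb2* in the gate.

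*Fabp4*, which binds fatty acids, had 1 UMI in cDC2s of each library, against 285 and 115 CPM in nonclassical monocytes. *Cd36*, which takes them up, had 2 UMIs and 0, against 368 and 283 CPM. *Treml4*, a receptor of nonclassical monocytes, stood at 2.69 against 349 CPM and 8.02 against 399. *Slc12a2*, *Trem3*, *Eno3*, *Cd300e*, *Fpr2*, *Pglyrp1* and *S1pr5* were the others of the 10 lowest. All 9 measured nonclassical monocyte markers were lower in cDC2s in both libraries.

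**Figure D5:**
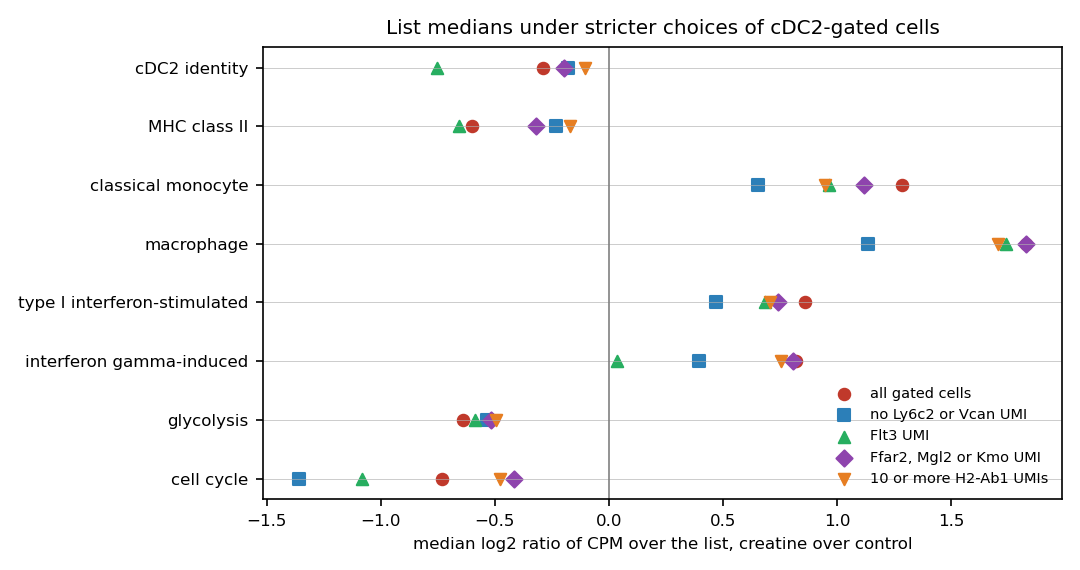
Median log2 ratio of CPM, creatine over control, for 8 lists (rows) over all cDC2-gated cells and over 4 stricter choices of cells (symbols). MHC class II moves from −0.60 to −0.66 with a *Flt3* UMI and to −0.17 with 10 or more *H2-Ab1* UMIs, a choice made on a class II gene, and the interferon-γ list from 0.82 to 0.04 with a *Flt3* UMI, while glycolysis lies between −0.64 and −0.49.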

How the data were processed

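Single cells were sequenced once per condition (10x Genomics 3′ kit v2, 10000 cells loaded from 4 combined tumors). The deposited matrices hold raw UMI counts per gene and cell that the authors made with Cell Ranger 3.0.2 on mm10, per the labels, with no normalization. The control sample's treatment protocol names creatine, but its title and treatment entry give PBS, and it was taken as control. Depth was 80434564 UMIs over 7649 barcodes (control) and 72898494 over 6503 (creatine). All cells of at most 25% mitochondrial UMIs also had at least 300 UMIs and 100 genes. No doublet caller was run.

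Within a gate, UMIs were added up over cells and scaled to CPM with Python 3.11.15 and scipy 1.17.1. Intervals are exact 95% (Poisson for CPM, Clopper-Pearson for shares and, conditional on the sum, for ratios) and cover counting error only. Genes with at least 30 UMIs over the cells compared were measured. Zeros were set at a floor of 3 counts for ratios. The gate's own genes were left out of all list counts. Scripts were tested on simulated data. Monocyte gates further had no *Flt3* or *Zbtb46* UMI, which fixes those genes there.

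The named genes are those of the gates and lists, the 10 highest and 10 lowest ratios between libraries among genes of at least 100 UMIs with intervals that do not overlap, and the 10 highest and lowest per gate comparison by the smaller of the 2 libraries' ratios. Members, gates and lists were chosen with earlier results of these data known. Alternatives were the gate, the scaling and the count minimum. All 580 genes looked up were found in GENCODE M21 by gene ID. *Amica1*, *Ifi30*, *Cxcl11*, *Clec7a* and *Mx2* of the lists were not analysed here. A few genes that the rule names are not reported here.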

Additional observations from a re-analysis of the deposited data

Results flagged for a closer look

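Some lists leaned one way between the libraries in cDC2s and the other way in a monocyte gate. Each comparison rests on 1 library per condition, and the differences between gates were not tested. The MHC class II list had a median log2 ratio of creatine over control of −0.60 in cDC2s and 0.56 in nonclassical monocytes. The macrophage list gave 1.83 in cDC2s and −0.36 in classical monocytes. The chemokine list gave 0.67 in cDC2s and −0.31 in classical monocytes, and the list of lysosome and uptake genes 0.39 and −0.33. The list of markers shared by conventional dendritic cells gave −0.33 in cDC2s, 0.73 in classical monocytes and 0.85 in nonclassical monocytes, where most of its genes have few UMIs.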

How the results depend on the processing

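No paired analysis was possible because each condition is 1 library, and no replicate could be left out. The cause of the moves given here was not tested. The median log2 ratio of MHC class II was −0.70 with TMM scaling, −0.66 without mitochondrial and ribosomal protein genes, −0.68 with *Cd209a* at 1 UMI or more, −0.69 with 3 or more, −0.23 without *Ly6c2* and *Vcan* UMIs, −0.66 with a *Flt3* UMI, −0.32 with a *Ffar2*, *Mgl2* or *Kmo* UMI and −0.17 with 10 or more *H2-Ab1* UMIs, a choice of cells by a class II gene. For classical monocyte markers it was 1.16 with no Cd3 or C1q UMI, 0.65 without *Ly6c2* and *Vcan*, 0.97 with *Flt3*, 1.12 with *Ffar2*, *Mgl2* or *Kmo* and 0.95 with *H2-Ab1*. The macrophage median was 1.14 without *Ly6c2* and *Vcan*, the interferon-γ median 0.036 with *Flt3*, and the cell cycle median −2.11 without the 5% of cells with the most UMIs. The last 3 choices of cells (*Flt3*, *Ffar2* with *Mgl2* or *Kmo*, and *H2-Ab1*) and the ratio without the top cell were added after the data were seen.

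With TMM scaling 736 genes were at least 1.5-fold higher and 789 lower, which turns the order of the 2 counts. Genes at least 1.5-fold lower numbered 376 with no Cd3 or C1q UMI. With fewer than 2 cell cycle UMIs per cell, 477 were higher and 353 lower, and with a minimum of 10 UMIs 1718 and 1340. Against cDC1s 213 genes were higher without *Ly6c2* and *Vcan*, and against classical monocytes 440 with the minimum of 10.

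The control share was 0.401% with no Cd3 or C1q UMI, 0.649% without *Ly6c2* and *Vcan*, 0.580% with *Flt3* and 0.377% with cells thinned before gating. The creatine share was 0.626% with no Cd3 or C1q UMI, which turns the order of the libraries, 0.337% without *Ly6c2* and *Vcan*, 0.530% with *Ffar2*, *Mgl2* or *Kmo*, 0.594% with *H2-Ab1* and 0.202% thinned. The order also turns with *Flt3*, at 42 of 7241 control and 41 of 6229 creatine cells. It turns too with fewer than 2 cell cycle UMIs, at 28 and 27 cells.

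Some ratios changed sign. *Ccl9* gave −0.015 with no Cd3 or C1q UMI, where *Ier3* gave 0.078, −0.029 with *Ffar2*, *Mgl2* or *Kmo* and −0.038 with *H2-Ab1*. *Naaa* gave 0.063 and 0.045 under the latter 2. Without *Ly6c2* and *Vcan*, *Ccl2* gave −1.07, *Fcgr3* −0.0445, *H2-Oa* 0.10, *Hspa8* −0.12 and *Ms4a4c* −0.34. With few cell cycle UMIs *Cxcl9* gave −0.0495 and the plasmacytoid list −0.085. With *Flt3*, *B2m* gave −0.011, *Gzma* −0.76 and *Hist1h2ap* 0.44. *Ccl5* gave −0.20 without its top cell.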
